A study of Homo sapiens with 16 samples.

Results

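Cells of the blood hold on to matrix, to vessel walls and to one another through a small number of receptor families, and 33 of these genes were followed here in acute myeloid leukaemia (AML) cells with the translocation t(8;21). The genes were taken by name as integrins and leukocyte adhesion molecules and all 33 are among the 60357 genes listed in the RNA-seq tables. They comprise 12 integrin alpha subunits, 8 integrin beta subunits, P-selectin and its ligand, 5 immunoglobulin-type counter-receptors, 4 junctional molecules and the receptors *CD44* and *CD47*. The libraries come from 2 human AML lines with this translocation and its fusion protein RUNX1/ETO, Kasumi-1 and, grown with GM-CSF, SKNO-1. Cells of each line received 2 µg/ml of lipid nanoparticles (LNPs) for 24 h and were harvested on day 3. The nanoparticles carried either LNP/siRE-mod, an siRNA against RUNX1/ETO (genotype label RUNX1/ETO knockdown), or LNP/siMM-mod, a mismatch control (genotype label WT), with 3 libraries per line and siRNA and no library of untreated cells. The labels do not say whether the 3 libraries came from separate cultures, so the p-values below measure the spread between these libraries. The 12 in vitro libraries held 60559466 to 147990959 counts on genes, a depth at which counting error is small for any gene above a few CPM (counts scaled to the library total).

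An integrin is a pair of an alpha and a beta subunit, neither of which reaches the cell surface well without its partner, and the pair decides the ligand. Beta1 pairs bind fibronectin, laminin, collagen and the endothelial VCAM-1, beta2 pairs bind ICAMs, and alphaV pairs bind vitronectin or latent TGF-beta. P-selectin glycoprotein ligand (PSGL-1) starts the rolling of leukocytes on vessel walls, integrins then hold the cell, and PECAM-1 and the JAM family act at the junctions through which it passes. In AML these receptors are known for anchoring blasts to the marrow stroma.

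The labels of the libraries have to be read with care, because the targeted gene goes against some of them. *RUNX1T1* carries most of the fusion transcript, and *CD34* encodes a surface protein of stem and progenitor cells. Normalized CPM (counts scaled to a common library total with edgeR's TMM factor) of *CD34* were 0.107 to 0.625 in 6 libraries and 117 to 420.1 in the other 6. Within the 6 with low *CD34*, *RUNX1T1* was at 159 to 164 normalized CPM in 3 libraries and at 37.2 to 44.3 in the other 3. Within the 6 with high *CD34*, it was at 296 to 329 in 3 and at 92.7 to 127 in the other 3. The low *CD34* libraries with high *RUNX1T1* are labelled Kasumi-1 siMM-mod replicate 3, Kasumi-1 siRE-mod replicate 2 and SKNO-1 siRE-mod replicate 2, and those with low *RUNX1T1* are labelled Kasumi-1 siRE-mod replicates 1 and 3 and SKNO-1 siRE-mod replicate 3. The high *CD34* libraries with high *RUNX1T1* are labelled Kasumi-1 siMM-mod replicate 1 and SKNO-1 siMM-mod replicates 1 and 2, and those with low *RUNX1T1* are labelled Kasumi-1 siMM-mod replicate 2, SKNO-1 siMM-mod replicate 3 and SKNO-1 siRE-mod replicate 1. Over all genes, the correlation of log2 CPM was 0.976 to 0.996 for the 12 pairs of libraries at one such position, and 0.801 to 0.995 for the 12 pairs that share a label. Of the 6 libraries labelled siMM-mod 5 lie on the high *CD34* side, and of the 6 labelled siRE-mod 5 lie on the low side, so a difference between the siRNA labels and one between the sides of *CD34* cannot be told apart in most of these libraries. Values are therefore given by label for every library, and then by position as ranges, with no test between positions because the positions were read from expression.

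Promoter sequences are shown for 3 members that differ in where they were expressed. *ITGA2* was read mostly in the high *CD34* libraries, *ICAM1* was higher in the low *CD34* libraries, and *VCAM1* had 0 counts in every library. Each is the 250 bases before the start given by RefSeq on GRCh38.p14, 5′ to 3′ on the strand of the gene, and capitals mark the RUNX core motif, searched as TGTGGT or TGCGGT on both strands.
ITGA2 promoter, chr5:52989102-52989351, plus strand: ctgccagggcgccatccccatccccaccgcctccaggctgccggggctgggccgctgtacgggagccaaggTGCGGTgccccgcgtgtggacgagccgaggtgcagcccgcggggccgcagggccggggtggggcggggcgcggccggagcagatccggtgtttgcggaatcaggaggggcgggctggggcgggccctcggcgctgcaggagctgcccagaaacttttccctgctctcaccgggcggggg
ICAM1 promoter, chr19:10270870-10271119, plus strand: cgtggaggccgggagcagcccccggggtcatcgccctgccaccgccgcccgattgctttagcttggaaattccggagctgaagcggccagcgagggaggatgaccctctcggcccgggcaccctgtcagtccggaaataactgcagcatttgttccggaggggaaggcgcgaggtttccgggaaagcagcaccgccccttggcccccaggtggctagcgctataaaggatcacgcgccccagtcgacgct
VCAM1 promoter, chr1:100719492-100719741, plus strand: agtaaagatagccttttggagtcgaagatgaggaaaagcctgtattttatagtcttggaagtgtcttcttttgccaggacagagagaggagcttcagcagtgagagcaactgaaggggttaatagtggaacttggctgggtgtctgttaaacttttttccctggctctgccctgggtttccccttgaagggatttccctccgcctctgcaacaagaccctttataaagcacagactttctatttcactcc
The *ITGA2* window holds 1 match, TGCGGT from 179 to 174 bases before the start, while those of *ICAM1* and *VCAM1* hold neither form of these letters. Of the 20 members with an entry, 4 had either form in at least one start, namely *ITGA2*, *ITGA6*, *ITGB5* and *SELP*, and 16.3% of the 35116 RefSeq promoters of this length have it. A match of letters is no evidence of binding.

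Compared per kilobase of annotated exon, the cells expressed a few of these receptors strongly and most of them weakly. In deposited FPKM (CPM divided by the exon length in kilobases), the median over the 12 libraries was 51.5 for *ITGB1*, 51.4 for *ITGA4*, 50.2 for *CD44* and 29.4 for *ITGA5*. These genes, which encode the subunits of the fibronectin and VCAM-1 receptors and the hyaluronan receptor, held the first 4 places in every library, with *ITGB1* ranging from place 1 to 3 and *ITGA4* from 1 to 4, so their order among themselves was not fixed. *ITGB2*, *CD47*, *ITGAV*, *SELPLG* and *ITGA6* followed with medians of 11.5, 10.2, 7.42, 7.00 and 5.76 FPKM and with ranges that overlapped one another. At the other end, 7 members stayed under 1 normalized CPM in every library, 17 were over 1 normalized CPM in every library, and 12 had a mean of at least 10 normalized CPM. *VCAM1* and *ICAM4* had 0 counts in all 12 libraries, where 3 counts correspond to 0.0195 to 0.0469 normalized CPM. *ITGB6*, the epithelial partner of alphaV, had a single count in 1 library.

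**Figure D1:**
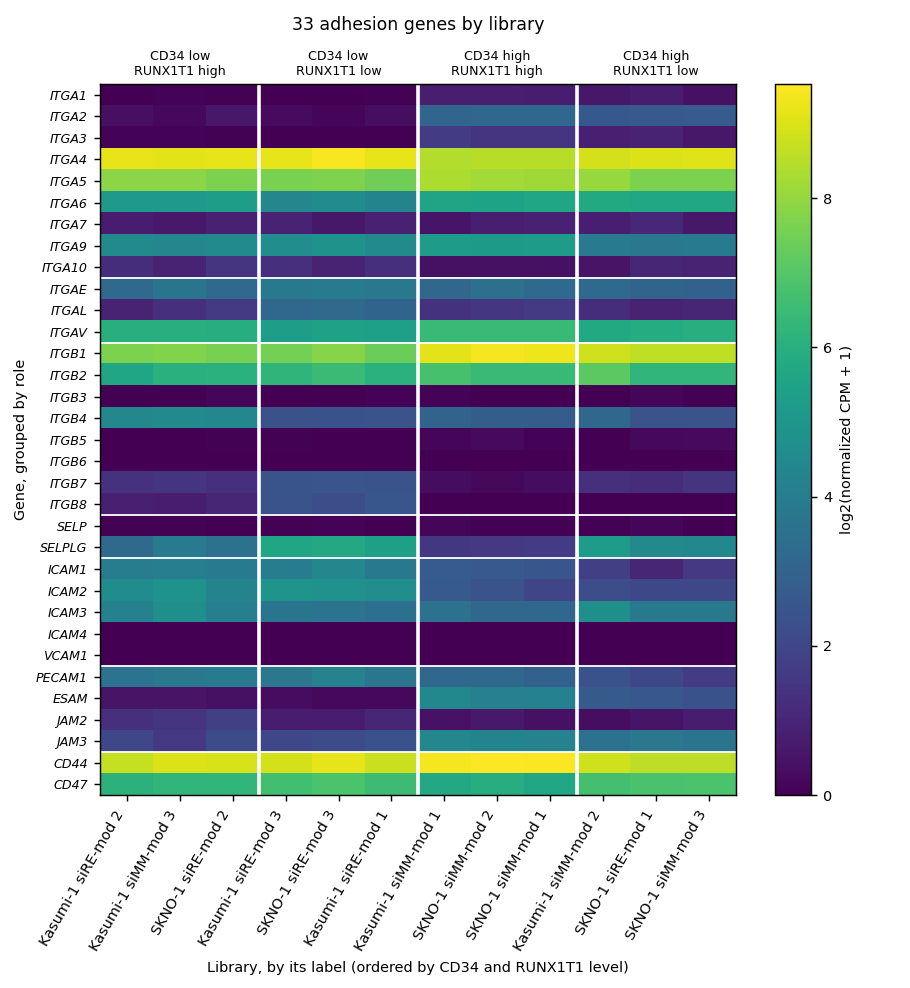
Expression of the 33 members (rows, grouped by role) in the 12 in vitro libraries (columns, named by label and ordered by *CD34* and then *RUNX1T1* level), coloured by log2(normalized CPM + 1). *ITGA4*, *ITGA5*, *ITGB1* and *CD44* are bright in every library, *ICAM4* and *VCAM1* are at 0 throughout, and *ESAM*, *ITGA2*, *ITGB8* and *SELPLG* change visibly between the positions.

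Among the 9 alpha subunits grouped with beta1, *ITGA4* (ENSG00000115232.14, chromosome 2 from 181457202 to 181538940 on GRCh38) had the highest median FPKM, 51.4. It was not the highest in every library. In the 3 with high *CD34* and high *RUNX1T1*, *ITGA5* had 34.2 to 41.9 FPKM and *ITGA4* 29.0 to 31.6. *ITGA4* encodes alpha4 of the VCAM-1 and fibronectin receptor VLA-4. Normalized CPM of *ITGA4* were 347, 480.2 and 558 for replicates 1, 2 and 3 of Kasumi-1 siMM-mod and 572, 590.0 and 583 for those of Kasumi-1 siRE-mod. For SKNO-1 siMM-mod the *ITGA4* values were 359, 362 and 530.1, and for SKNO-1 siRE-mod 519.7, 573 and 686. All 6 libraries with low *CD34*, at 558 to 686, lay above the 6 with high *CD34*, at 347 to 530.1. Within the high side, the 3 libraries with less *RUNX1T1* had more *ITGA4*, 480.2 to 530.1 against 347 to 362, and within the low side the ranges overlapped.

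*ITGA5* (ENSG00000161638.11, chromosome 12 from 54395261 to 54419266) encodes alpha5 of the main fibronectin receptor. Normalized CPM of *ITGA5* were 327, 269 and 235 for replicates 1, 2 and 3 of Kasumi-1 siMM-mod and 177, 233 and 193 for those of Kasumi-1 siRE-mod. SKNO-1 siMM-mod had *ITGA5* at 289, 296 and 199.9, and SKNO-1 siRE-mod at 200.3, 202 and 205. The 3 libraries with the most *CD34* and *RUNX1T1* had the most *ITGA5*, 289 to 327, and the other 9 lay between 177 and 269. In normalized CPM the labelled groups did not overlap in Kasumi-1, and in SKNO-1 they did. The Kasumi-1 gap was small, with siMM-mod replicate 3 at 234.5 and siRE-mod replicate 2 at 233.4. In deposited CPM these libraries were at 219.5 and 255.1, so the Kasumi-1 groups overlapped.

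*ITGA6* (ENSG00000091409.15, chromosome 2 from 172427354 to 172506459) encodes alpha6, a laminin receptor subunit that also pairs with beta4. Normalized CPM of *ITGA6* were 46.0, 53.9 and 33.5 for replicates 1, 2 and 3 of Kasumi-1 siMM-mod and 18.9, 35.04 and 20.3 for those of Kasumi-1 siRE-mod. The *ITGA6* values of SKNO-1 siMM-mod were 47.7, 45.5 and 50.9, against 50.5, 38.2 and 23.2 for SKNO-1 siRE-mod. *ITGA6* was lowest, at 18.9 to 23.2, in the 3 libraries with low *CD34* and low *RUNX1T1*, intermediate at 33.5 to 38.2 in those with low *CD34* and high *RUNX1T1*, and highest at 45.5 to 53.9 in the 6 with high *CD34*. The direction with *RUNX1T1* thus turned between the sides, since on the high side the libraries with less *RUNX1T1* had more *ITGA6*, 50.5 to 53.9 against 45.5 to 47.7.

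*ITGA9* (ENSG00000144668.12, chromosome 3 from 37452115 to 37823507) encodes alpha9, which binds VCAM-1 and tenascin. Normalized CPM of *ITGA9* were 36.5, 14.0 and 20.02 for replicates 1, 2 and 3 of Kasumi-1 siMM-mod and 22.6, 22.3 and 24.4 for those of Kasumi-1 siRE-mod. For SKNO-1 siMM-mod the *ITGA9* values were 37.6, 35.3 and 13.9, and for SKNO-1 siRE-mod 13.2, 22.3 and 27.7. By position the values formed 3 levels that crossed both labels. They were 35.3 to 37.6 with high *CD34* and high *RUNX1T1*, 20.02 to 27.7 with low *CD34*, and 13.2 to 14.0 with high *CD34* and low *RUNX1T1*. An antisense gene, *ITGA9-AS1*, shares 9.23% of the exonic bases of *ITGA9* and had a mean of 3.12 normalized CPM, and its reads cannot be told apart from those of *ITGA9* where strand was not used.

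The other 5 alpha subunits grouped with beta1 were scarce. *ITGA2* (chromosome 5 from 52989340 to 53094779), the collagen receptor subunit of platelets and epithelia whose promoter is printed above, was at 0.137 to 0.513 normalized CPM in the libraries with low *CD34* and at 5.09 to 8.42 in those with high *CD34*, and within the high side it was lower where *RUNX1T1* was lower, 5.09 to 5.61 against 7.71 to 8.42. Its neighbour 30.1 kb away, *ITGA1*, another collagen receptor subunit, went the same way at far lower levels, 0.00651 to 0.0540 against 0.328 to 0.731. *PELO*, on the same strand with a mean of 8.34 normalized CPM, shares 2.69% of the exonic bases of *ITGA1*, so the *ITGA1* values are uncertain. *ITGA3*, a laminin receptor subunit, had 0.0104 to 0.0757 against 0.547 to 2.15. *ITGA10*, a collagen receptor of cartilage, and *ITGA7*, a laminin receptor of muscle, ranged over 0.339 to 1.73 and 0.461 to 1.13 normalized CPM. None of these 5 subunits exceeded 8.42 normalized CPM in any library.

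The shared partner *ITGB1* (ENSG00000150093.19, chromosome 10 from 32900318 to 33005792), which encodes beta1, moved against *ITGA4* between the sides of *CD34*. Normalized CPM of *ITGB1* were 558, 459.6 and 209 for replicates 1, 2 and 3 of Kasumi-1 siMM-mod and 166, 197 and 183 for those of Kasumi-1 siRE-mod. SKNO-1 siMM-mod had *ITGB1* at 622, 677 and 394, and SKNO-1 siRE-mod at 392, 192 and 218. The 6 libraries with low *CD34* were at 166 to 218 and the 6 with high *CD34* at 392 to 677. In normalized CPM the labelled siMM-mod and siRE-mod groups did not overlap in either line. The gaps were small, 209 against 197 in Kasumi-1 and 393.8 against 392.3 in SKNO-1. In deposited CPM, made without TMM factors, the Kasumi-1 groups overlapped, with siMM-mod replicate 3 at 195.4 and siRE-mod at 198.0 to 215.9. In deposited FPKM, per kilobase of exon, the ratio of *ITGA4* to *ITGB1* was 1.51 to 1.94 in the low *CD34* libraries. In the high ones it was 0.302 to 0.759. The summed FPKM of the 9 alpha subunits described above, which leaves out alphaV, another partner of beta1, was 2.65 to 3.02 times that of *ITGB1* on the low side and 0.768 to 1.33 times on the high side. *ITGA4* made up 57.1% to 64.9% of that sum with low *CD34* and 36.4% to 57.1% with high *CD34*. On the opposite strand, *CERKL* shares 14.8% of the exonic bases of *ITGA4* and *ITGB1-DT* 6.67% of those of *ITGB1*. Reads there could have gone uncounted, so the ratios are uncertain to at least that extent. These ratios compare RNA and not surface protein.

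**Figure D2:**
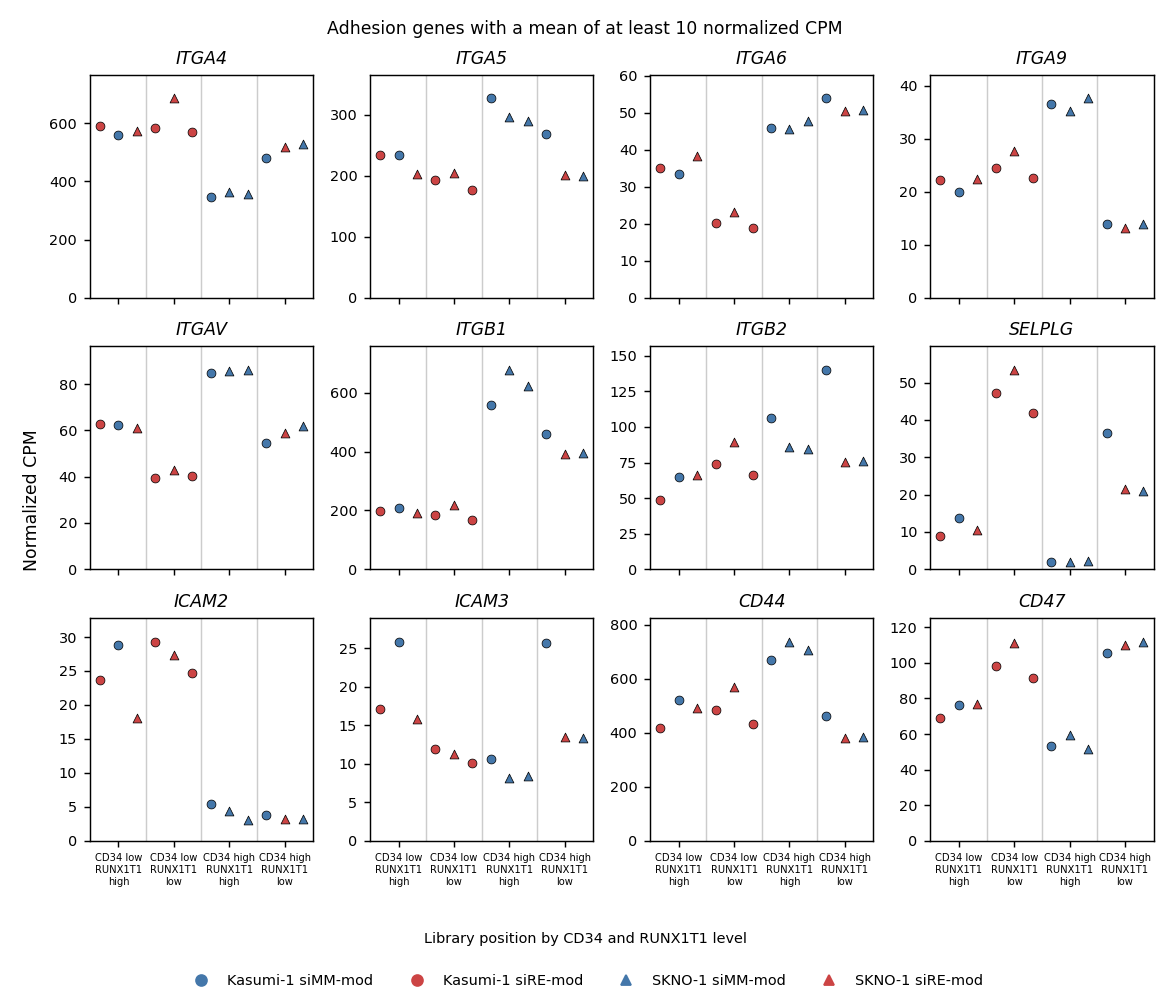
Normalized CPM (y axes, each from 0) of the 12 members with a mean of at least 10 normalized CPM in each in vitro library, ordered along the x axis by *CD34* and *RUNX1T1* level, with the cell line label as the shape and the siRNA label as the colour. *ITGB1* and *ICAM2* separate the sides of *CD34* and *SELPLG* and *CD47* are higher at low *RUNX1T1* on both sides.

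*ITGAV* (ENSG00000138448.12, chromosome 2 from 186590056 to 186680901) encodes alphaV, the subunit of the vitronectin receptor and of the integrins that release TGF-beta from its latent form. Normalized CPM of *ITGAV* were 84.8, 54.5 and 62.4 for replicates 1, 2 and 3 of Kasumi-1 siMM-mod and 40.2, 62.7 and 39.5 for those of Kasumi-1 siRE-mod. The *ITGAV* values of SKNO-1 siMM-mod were 86.1, 85.6 and 61.8, against 58.9, 60.9 and 42.8 for SKNO-1 siRE-mod. *ITGAV* was lower at low *RUNX1T1* on both sides of *CD34*, 39.5 to 42.8 against 60.9 to 62.7 on the low side and 54.5 to 61.8 against 84.8 to 86.1 on the high side. Of its beta partners other than beta1, *ITGB3* and *ITGB5* stayed at or under 0.173 normalized CPM.

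*ITGB8* (ENSG00000105855.10, chromosome 7 from 20330702 to 20415754), a partner of alphaV that holds latent TGF-beta, differed between the sides of *CD34*. It had 0 counts in each of the 6 libraries with high *CD34*, where 3 counts correspond to 0.0382 to 0.0469 normalized CPM. The 3 libraries with low *CD34* and high *RUNX1T1* had 64 to 101 counts, or 0.692 to 1.03 normalized CPM, and the 3 with low *CD34* and low *RUNX1T1* had 426 to 594 counts, or 3.87 to 4.89. By label, *ITGB8* was at 0, 0 and 0.692 in Kasumi-1 siMM-mod, 4.89, 0.775 and 4.44 in Kasumi-1 siRE-mod, 0, 0 and 0 in SKNO-1 siMM-mod and 0, 1.03 and 3.87 in SKNO-1 siRE-mod. Kasumi-1 siMM-mod replicate 3 and SKNO-1 siRE-mod replicate 1, across *CD34* from the rest of their siRNA label, had the *ITGB8* level of their side. Replicate 2 of siRE-mod in each line, with low *CD34* and high *RUNX1T1*, also stood apart. It was at 0.775 and 1.03, against 3.87 to 4.89 in the siRE-mod libraries with both low. In deposited FPKM the ratio of *ITGB8* to *ITGAV* was at most 0.0660.

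Leukocyte beta2, encoded by *ITGB2* (ENSG00000160255.18, chromosome 21 from 44885953 to 44931989), is the partner of the ICAM receptors. Normalized CPM of *ITGB2* were 106, 140.0 and 64.8 for replicates 1, 2 and 3 of Kasumi-1 siMM-mod and 66.1, 48.6 and 74.1 for those of Kasumi-1 siRE-mod. For SKNO-1 siMM-mod the *ITGB2* values were 84.8, 85.8 and 76.3, and for SKNO-1 siRE-mod 75.3, 66.3 and 89.4. The low and high sides of *CD34* overlapped, and the highest value belonged to Kasumi-1 siMM-mod replicate 2. *ITGAL* (chromosome 16 from 30472658 to 30523185), which encodes alphaL and forms the ICAM receptor LFA-1 with beta2, was 7.38 to 8.78 normalized CPM in the 3 libraries with low *CD34* and low *RUNX1T1* and 0.877 to 2.11 in the other 9. Per kilobase of exon, *ITGAL* was 0.104 to 0.119 times *ITGB2* in those 3 libraries and 0.0103 to 0.0325 times in the rest. On the high *CD34* side the direction was opposite, with *ITGAL* at 0.877 to 1.36 where *RUNX1T1* was low and 1.63 to 2.11 where it was high.

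*ITGB7* (chromosome 12 from 53191323 to 53207282), which encodes beta7, the gut-homing partner of alpha4 and alphaE, was 4.42 to 4.72 normalized CPM with low *CD34* and low *RUNX1T1*, 1.46 to 1.74 with low *CD34* and high *RUNX1T1*, 1.32 to 1.77 with high *CD34* and low *RUNX1T1*, and 0.159 to 0.244 with high *CD34* and high *RUNX1T1*. It was thus higher at low *RUNX1T1* on both sides. *ZNF740*, on the opposite strand with a mean of 41.5 normalized CPM, shares 42.3% of the exonic bases of *ITGB7*, so the count of *ITGB7* is uncertain where strand was not used. *ITGAE* (chromosome 17 from 3714628 to 3801188) encodes alphaE, the E-cadherin receptor subunit of mucosal lymphocytes. It ranged over 6.79 to 14.0 and was 12.9 to 14.0 with low *CD34* and low *RUNX1T1*. *HASPIN*, on the opposite strand with a mean of 5.56 normalized CPM, shares 6.47% of the exonic bases of *ITGAE*. *ITGB4* (chromosome 17 from 75721328 to 75757818), the beta4 partner of alpha6 in epithelial anchoring junctions, was 20.5 to 22.3 normalized CPM in the 3 libraries with low *CD34* and high *RUNX1T1* and 4.21 to 8.02 in the other 9, with 1 of those 3 labelled siMM-mod and 2 labelled siRE-mod.

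Of the selectin pair, P-selectin itself, *SELP*, which platelets and endothelium store, did not exceed 0.119 normalized CPM. Its ligand gene *SELPLG* (ENSG00000110876.9, chromosome 12 from 108622277 to 108633959), which encodes PSGL-1, differed severalfold between libraries with one label. Normalized CPM of *SELPLG* were 1.95, 36.5 and 13.8 for replicates 1, 2 and 3 of Kasumi-1 siMM-mod and 41.8, 8.76 and 47.2 for those of Kasumi-1 siRE-mod. SKNO-1 siMM-mod had *SELPLG* at 2.24, 2.00 and 20.8, and SKNO-1 siRE-mod at 21.6, 10.6 and 53.3. *SELPLG* followed *RUNX1T1* inversely on both sides of *CD34*. The 3 libraries with low *RUNX1T1* on the low side had 41.8 to 53.3 against 8.76 to 13.8, and those on the high side had 20.8 to 36.5 against 1.95 to 2.24, with no overlap.

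Among the counter-receptors, *ICAM2* (ENSG00000108622.11, chromosome 17 from 64002594 to 64020634), a ligand of LFA-1, separated the sides of *CD34*. Normalized CPM of *ICAM2* were 5.45, 3.82 and 28.8 for replicates 1, 2 and 3 of Kasumi-1 siMM-mod and 24.8, 23.6 and 29.3 for those of Kasumi-1 siRE-mod. For SKNO-1 siMM-mod the *ICAM2* values were 2.99, 4.43 and 3.14, and for SKNO-1 siRE-mod 3.17, 18.1 and 27.3. The 6 low *CD34* libraries were at 18.1 to 29.3 and the 6 high ones at 2.99 to 5.45. *PRR29*, an opposite-strand gene with a mean of 1.01 normalized CPM, shares 26.8% of its exonic bases. *ICAM1* (chromosome 19 from 10271093 to 10286615), the inducible ligand of LFA-1, was likewise 13.5 to 20.4 on the low side and 1.03 to 5.87 on the high side, and within the high side 1.03 to 2.52 where *RUNX1T1* was low and 4.86 to 5.87 where it was high.

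*ICAM3* (ENSG00000076662.10, chromosome 19 from 10333776 to 10339661), the constitutive leukocyte ICAM, behaved differently. Normalized CPM of *ICAM3* were 10.6, 25.7 and 25.9 for replicates 1, 2 and 3 of Kasumi-1 siMM-mod and 10.1, 17.1 and 11.9 for those of Kasumi-1 siRE-mod. The *ICAM3* values of SKNO-1 siMM-mod were 8.39, 8.19 and 13.3, against 13.5, 15.8 and 11.2 for SKNO-1 siRE-mod. It was lower at low *RUNX1T1* on the low *CD34* side, 10.1 to 11.9 against 15.8 to 25.9, and higher at low *RUNX1T1* on the high side, 13.3 to 25.7 against 8.19 to 10.6. Of its exonic bases 75.4% are shared with *AC114271.1* on the opposite strand, which had a mean of 0.418 normalized CPM. *ICAM4*, 339 bases from *ICAM1*, stayed at 0 counts while *ICAM1* varied. All exonic bases (100%) of *ICAM4* and 23.6% of those of *ICAM1* are shared with *AC011511.5* on the opposite strand (mean 0.218 normalized CPM), so reads of *ICAM4* could have gone uncounted and its 0 does not show that it is silent.

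The junctional molecules also split the libraries. *ESAM* (ENSG00000149564.12, chromosome 11 from 124752583 to 124762290), an adhesion molecule of endothelium, platelets and stem cells, was 0.148 to 0.422 normalized CPM in the 6 libraries with low *CD34*, 4.28 to 5.55 in the 3 with high *CD34* and low *RUNX1T1* and 16.9 to 20.7 in the 3 with high *CD34* and high *RUNX1T1*. *JAM3* (chromosome 11 from 134068925 to 134152001), which encodes JAM-C, took the same order with 2.00 to 4.33, 10.8 to 12.6 and 17.8 to 20.3. *NCAPD3*, on the opposite strand with a mean of 213 normalized CPM, shares 8.53% of the exonic bases of *JAM3*, so the *JAM3* values are uncertain where strand was not used. *PECAM1* (chromosome 17 from 64319415 to 64413776), which encodes CD31, ran the other way, at 11.3 to 17.7 with low *CD34* and 2.22 to 8.32 with high *CD34*. *JAM2*, which encodes JAM-B, the binding partner of JAM-C, did not exceed 2.45 normalized CPM and was highest, 1.53 to 2.45, with low *CD34* and high *RUNX1T1*. Because these genes are also endothelial, the markers of that cell type were read beside them. Of 5 endothelial markers, *CDH5*, which encodes VE-cadherin and defines that cell type, was at 0 counts in the low *CD34* libraries and at most 0.447 normalized CPM in the high ones, and the 5 summed to 1.0999 to 2.90 in the low and 0.344 to 0.894 in the high ones. The low *CD34* sum was mostly *KDR*, the VEGF receptor gene, at 0.916 to 2.80 against at most 0.130 on the high side. *KDR* was thus higher on the same side as *PECAM1*. *ROBO4* ran the other way, at most 0.0103 with low *CD34* against 0.0469 to 0.119 with high *CD34*. *CLDN5* overlapped, at 0.0649 to 0.223 against 0.142 to 0.266, and so did *EMCN*, at most 0.0324 against at most 0.0156. The part of endothelial cells in these values was not tested.

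**Figure D3:**
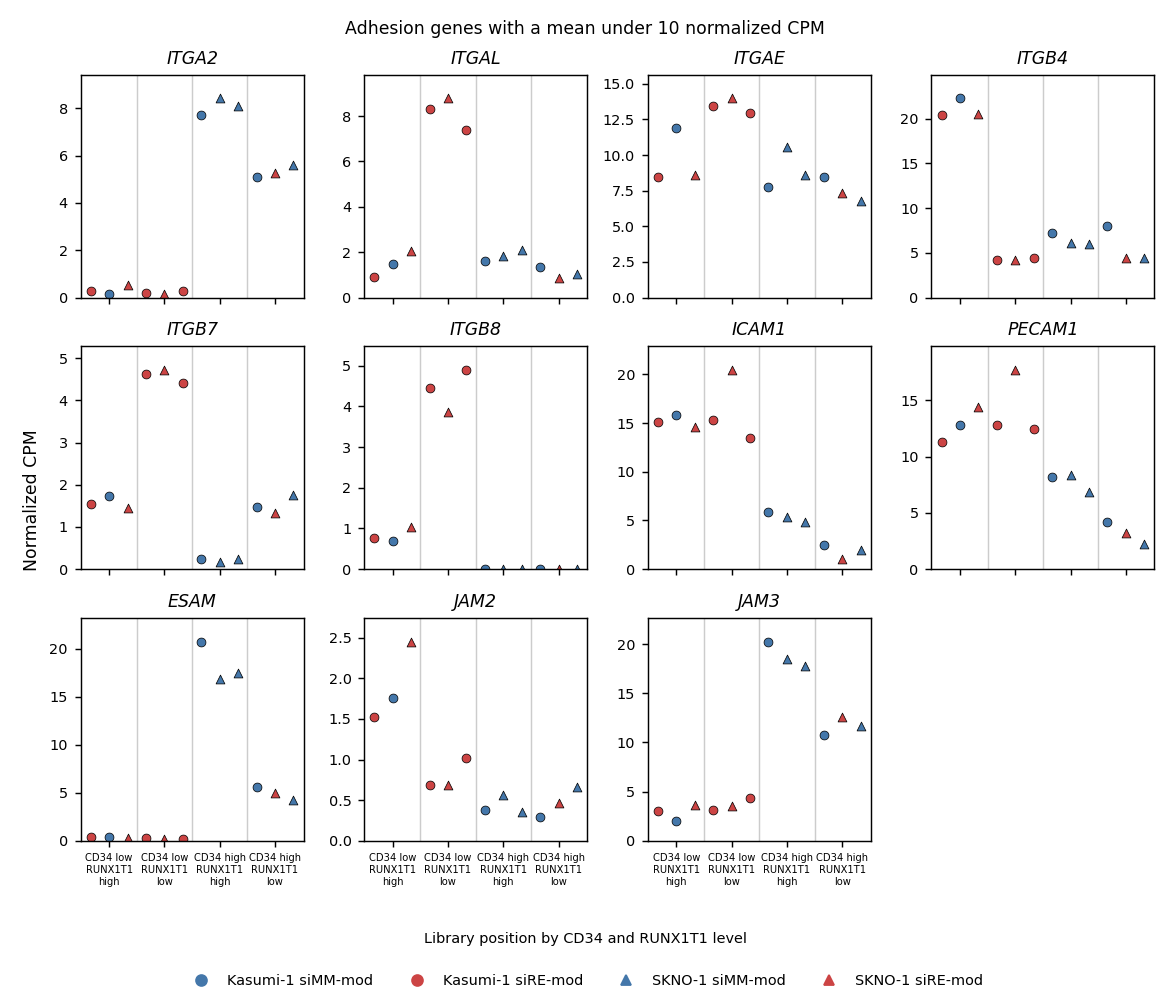
Normalized CPM (y axes, each from 0) of 11 members with a mean under 10 normalized CPM in each in vitro library, ordered along the x axis by *CD34* and *RUNX1T1* level, with the cell line label as the shape and the siRNA label as the colour. *ITGB8* lies at 0 in the 6 high *CD34* libraries, *ESAM*, *ITGA2* and *JAM3* lie higher there, and *ITGB4* and *ITGAL* are each high at a single position.

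The hyaluronan receptor gene *CD44* (ENSG00000026508.18, chromosome 11 from 35138870 to 35232402) ranged over 380.0 to 737 normalized CPM. Normalized CPM of *CD44* were 670.4, 460.2 and 519 for replicates 1, 2 and 3 of Kasumi-1 siMM-mod and 431, 416 and 483 for those of Kasumi-1 siRE-mod. For SKNO-1 siMM-mod the *CD44* values were 705, 737 and 382, and for SKNO-1 siRE-mod 380.0, 490.0 and 569. Its highest values, 670.4 to 737, were in the 3 libraries with high *CD34* and high *RUNX1T1*, and the other positions overlapped. *CD47* (ENSG00000196776.16, chromosome 3 from 108043091 to 108091862) encodes the integrin-associated thrombospondin receptor that also keeps macrophages from engulfing the cell. Normalized CPM of *CD47* were 53.1, 105 and 76.4 for replicates 1, 2 and 3 of Kasumi-1 siMM-mod and 91.8, 68.9 and 98.3 for those of Kasumi-1 siRE-mod. SKNO-1 siMM-mod had *CD47* at 51.4, 59.6 and 112, and SKNO-1 siRE-mod at 109.8, 76.8 and 111. *CD47* was higher at low *RUNX1T1* on both sides, 91.8 to 111 against 68.9 to 76.8 with low *CD34* and 105 to 112 against 51.4 to 59.6 with high *CD34*. *SIRPA*, the gene of its inhibitory receptor, ran from 4.25 to 6.46 with low *CD34* and from 15.8 to 24.2 with high *CD34*.

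Counted over the members with at least 600 reads, 6 of 25 were higher and 5 lower in every low *CD34* library than in every high one, where 33.1% of all 15863 genes did not overlap (17.5% higher and 15.6% lower). The higher ones were *ITGA4*, *ITGB8*, *ICAM1*, *ICAM2*, *PECAM1* and *JAM2*, and the lower ones *ITGA2*, *ITGA6*, *ITGB1*, *ESAM* and *JAM3*. Between low and high *RUNX1T1* within low *CD34*, 7 of 22 members were higher and 5 lower without overlap, against 46.4% of 13783 genes (24% higher and 22.4% lower). Within high *CD34*, 5 of 20 were higher and 11 lower, against 41% of 12845 genes (17.6% higher and 23.4% lower). *SELPLG* and *CD47* were higher and *ITGAV* lower at low *RUNX1T1* on both sides. *ITGA6* and *ICAM3*, lower on one side and higher on the other, and *ITGA9* and *ITGAL*, higher on the low side and lower on the high side, turned direction. Non-overlap was common among all genes in each of these comparisons, and nothing particular to the adhesion genes is read from these counts.

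With the libraries grouped by their labels, the question was whether siRE-mod changed these genes. In Kasumi-1, 0 of the 24 members tested and 0 of 13608 genes (0%) passed an adjusted p of 0.05 in edgeR's quasi-likelihood test (Benjamini-Hochberg). There, 2 members had an unadjusted p under 0.05 and were higher and 5 lower, against 2435 genes (17.9%, with 5.85% higher and 12% lower). In SKNO-1, 0 of 22 members and 0 of 13628 genes (0%) passed, where 2 members had an unadjusted p under 0.05 and were higher and 1 lower, against 1455 genes (10.7%, with 8.3% higher and 2.38% lower). The median log2 fold change was 0.06 over the tested members and 0.02 over all genes in Kasumi-1. The same medians in SKNO-1 were 0.30 and 0.03. Groups that did not overlap were found for 3 members higher and 3 lower under siRE-mod in Kasumi-1 (21.6% of all genes, 9.78% higher and 11.8% lower) and for 0 higher and 3 lower in SKNO-1 (12.1%, 5.61% higher and 6.47% lower). They were *ITGA4*, *ITGA10* and *ITGB8* higher and *ITGA5*, *ITGB1* and *ESAM* lower in Kasumi-1, and *ITGA2*, *ITGAV* and *ITGB1* lower in SKNO-1. These groups were compared in normalized CPM. In deposited CPM the Kasumi-1 groups of at least *ITGA5* and *ITGB1* overlapped.

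*ITGB1* gave fitted values of like size in both lines, neither of which passed. Its mean was 409 ± 180.1 normalized CPM (SD, n = 3) under siMM-mod and 182 ± 15.5 under siRE-mod in Kasumi-1. In SKNO-1 the means were 564 ± 150.3 and 268 ± 109. In edgeR's quasi-likelihood test (Benjamini-Hochberg) its log2 fold change was −1.17 (standard error 0.37, adjusted p = 0.252) in Kasumi-1 and −1.07 (standard error 0.35, adjusted p = 0.466) in SKNO-1. For *ESAM* the values in the same test were −5.05 (standard error 1.41, adjusted p = 0.252) and −2.80 (standard error 1.36, adjusted p = 0.494), and for *ITGA2* −4.02 (standard error 1.28, adjusted p = 0.252) and −1.88 (standard error 1.21, adjusted p = 0.574). *ICAM2* had 1.05 (standard error 0.77, adjusted p = 0.476) and 2.19 (standard error 0.71, adjusted p = 0.466) in that test. *SELPLG* had 0.91 (standard error 1.07, adjusted p = 0.644) and 1.74 (standard error 1.09, adjusted p = 0.564) by edgeR. The fitted change of *ITGB8* depends on the prior count, since most libraries labelled siMM-mod are at 0.

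DESeq2 with the same filter called more, 3 members (*ITGA2*, *ITGB1* and *ESAM*) lower under siRE-mod in Kasumi-1, where it called 9.28% of genes, 1.71% higher and 7.58% lower. In SKNO-1 it called 1 member (*ITGB8*) higher and 2.78% of genes, 2.65% higher and 0.135% lower. Its adjusted p was 0.00807 for *ITGA2*, 0.0290 for *ITGB1* and 0.000338 for *ESAM* in Kasumi-1, and 0.0211 for *ITGB8* in SKNO-1. Single libraries also decided the edgeR calls. Without Kasumi-1 siMM-mod replicate 3, 9 members passed in Kasumi-1 (32.2% of genes, 16.5% higher and 15.7% lower), *ITGB8*, *ICAM1* and *ICAM2* higher and *ITGA2*, *ITGA6*, *ITGB1*, *ITGB2*, *ESAM* and *JAM3* lower. Without SKNO-1 siRE-mod replicate 1, 7 passed in SKNO-1 (19.3% of genes, 10.8% higher and 8.55% lower), the same 3 higher and *ITGA2*, *ITGB1*, *ESAM* and *JAM3* lower. Each of these fits sets libraries with high *CD34* labelled siMM-mod against libraries with low *CD34* labelled siRE-mod, so the siRNA and the side of *CD34* cannot be told apart in them.

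**Figure D4:**
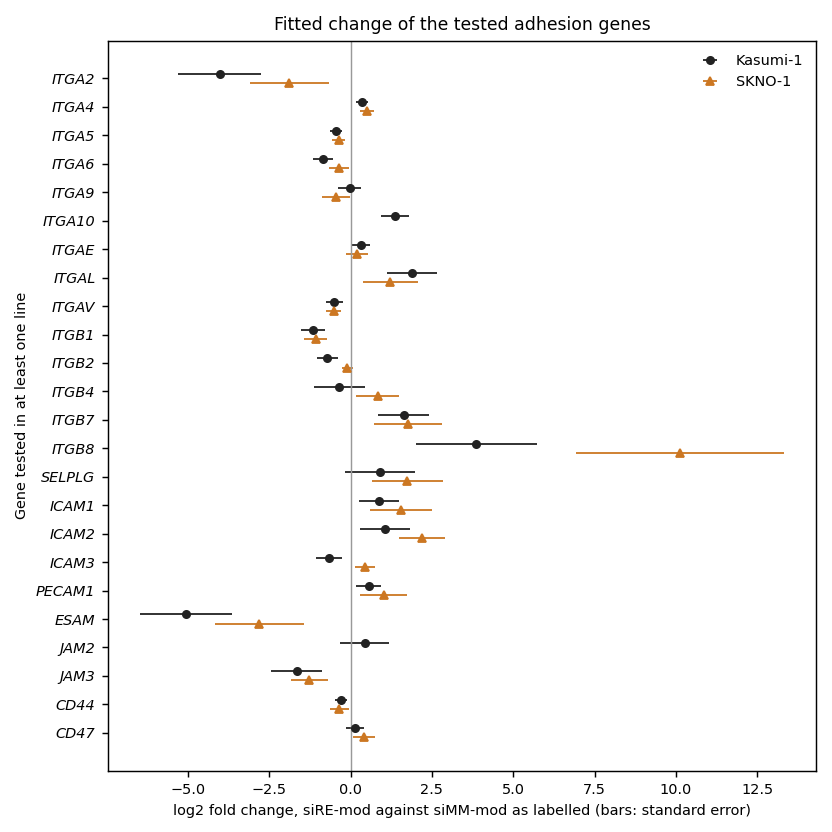
Fitted log2 fold change (x axis) of siRE-mod against siMM-mod as labelled for each member tested in at least one line (rows), for Kasumi-1 (circles) and SKNO-1 (triangles), with bars for 1 standard error. No member had an adjusted p under 0.05, and the bars are longest for *ITGB8*, *ESAM* and *ITGA2*. The standard errors were back-calculated from the log2 fold change and the F value of the test.

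The effect of siRE-mod did not pass the threshold for differing between the lines for any of 25 members (edgeR, cell line by siRNA, 0% of 15863 genes), and 0 members and 106 genes (0.668%) had an unadjusted p under 0.05. DESeq2 called 127 genes (0.808%), *ITGB8* among them (adjusted p = 0.00682), whose libraries are all at 0 under SKNO-1 siMM-mod. Between Kasumi-1 and SKNO-1 as labelled, 0 of 25 members and 0% of genes passed in edgeR, 0 members and 12.9% of genes had an unadjusted p under 0.05, and DESeq2 called 0 members and 272 genes (1.98%). No member separated the cell line labels without overlap, whereas 0.687% of all genes did (0.416% higher in Kasumi-1 and 0.271% lower). Each line label pools both sides of *CD34*. The low side holds 4 libraries labelled Kasumi-1 and 2 labelled SKNO-1, and the high side 2 and 4. Because of this crossing, these comparisons cannot show whether the lines, or their responses to siRE-mod, differ.

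The machinery around these receptors was read from fixed lists. Of 35 genes of integrin activation and the adhesion complex, 0 of the 28 tested in each line passed by edgeR, with 0 higher and 7 lower at an unadjusted p under 0.05 in Kasumi-1 and 2 higher and 3 lower in SKNO-1, and with a median log2 fold change of −0.07 and 0.03. The shares over all genes at that p are 5.85% higher and 12% lower in Kasumi-1. For SKNO-1 they are 8.3% higher and 2.38% lower. The median log2 fold changes over all genes were 0.02 in Kasumi-1 and 0.03 in SKNO-1. *ZYX*, which encodes the adhesion complex protein zyxin, was at 45.01 to 92.0 normalized CPM with low *CD34* and 85.5 to 239 with high *CD34*, and *PTK2*, which encodes focal adhesion kinase, at 38.2 to 70.1 and 74.5 to 206. The scaffold gene *PXN* (paxillin) had 1.82 to 2.55 with low *CD34* and low *RUNX1T1* and 12.0 to 13.1 with low *CD34* and high *RUNX1T1*, below the 18.9 to 38.8 of the high side. The list as a whole went both ways. Of its 31 genes with at least 600 reads, 7 were higher with low *CD34* without overlap, *TLN1* and *FERMT3* among them, and 7 lower. Over all genes the shares were 17.5% and 15.6%.

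Of 20 genes of other leukocyte adhesion receptors found by symbol, 0 of 12 tested passed in either line by edgeR, where 0% of all genes passed. At an unadjusted p under 0.05, 0 were higher and 1 lower in Kasumi-1 (5.85% and 12% of all genes). In SKNO-1, 1 was higher and 1 lower (8.3% and 2.38%). Of the 12 with at least 600 reads, 2 were higher and 1 lower with low *CD34* without overlap (17.5% and 15.6%). The platelet integrin gene *ITGA2B* was 53.1 to 90.5 normalized CPM with low *CD34* and 1.47 to 2.38 with high *CD34*. Its beta partner *ITGB3* did not exceed 0.119 in any library, although 51.6% of its exonic bases are shared with *AC068234.1* on the same strand, where reads could have gone uncounted, and the platelet markers *PF4*, *PPBP* and *GP9* summed to at most 0.216. *SPN*, the leukosialin gene, ranged over 107 to 227, and *PODXL*, a CD34-related sialomucin gene, over 9.90 to 23.7.

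Enzymes that build selectin ligands on PSGL-1 numbered 8, and 0 of 8 tested in Kasumi-1 and 0 of 7 in SKNO-1 passed by edgeR. Their median log2 fold changes were 0.59 and 0.57, against 0.02 and 0.03 over all genes. At an unadjusted p under 0.05, 2 were higher and 1 lower in Kasumi-1 (5.85% and 12% of all genes). In SKNO-1, 2 were higher and 0 lower (8.3% and 2.38%). Of the 8, 4 were higher and 2 lower with low *CD34* without overlap (17.5% and 15.6%). The sialyltransferase gene *ST3GAL4* was 301 to 334 normalized CPM with low *CD34* and low *RUNX1T1*, 117 to 146 with low *CD34* and high *RUNX1T1*, 38.2 to 47.9 with high *CD34* and low *RUNX1T1*, and 24.2 to 25.7 with both high, so that within each side it was higher where *SELPLG* was higher. *GCNT1*, which starts the core branch, was 67.9 to 105 with low *CD34* and 15.4 to 19.2 with high *CD34*, while *ST3GAL6*, another sialyltransferase gene, was 5.85 to 14.4 and 21.9 to 33.2. Unlike *ST3GAL4*, *ST3GAL6* was lower at low *RUNX1T1* on both sides, 5.85 to 6.12 against 10.9 to 14.4 and 21.9 to 27.0 against 28.9 to 33.2. *GCNT1* turned direction, at 67.9 to 74.6 against 97.4 to 105 on the low side and 17.8 to 19.2 against 15.4 to 16.5 on the high side.

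Of 16 matrix ligands and partners, 0 of 8 tested passed in each line by edgeR, where 0% of all genes passed. At an unadjusted p under 0.05, 0 were higher and 1 lower in Kasumi-1 (5.85% and 12% of all genes). In SKNO-1, 3 were higher and 1 lower (8.3% and 2.38%). Of the 10 with at least 600 reads, 4 were higher and 1 lower with low *CD34* without overlap (17.5% and 15.6%). The genes *LAMB2* and *LAMC1* of laminin chains, laminins being ligands of the alpha6 integrins, were 9.93 to 45.3 and 45.7 to 89.9 normalized CPM with low *CD34* and 0 to 0.0406 and 0.271 to 0.865 with high *CD34*. *ITGA6* itself ran the other way between the sides.

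Myeloid markers were detected in every library, which does not show that a library holds the line on its label. *PTPRC*, *CD33*, *MPO*, *KIT* and *AZU1*, markers of myeloid leukaemia cells, were all detected, but their levels differed between the sides of *CD34*. *CD33* overlapped, at 44.96 to 71.5 normalized CPM with low *CD34* and 38.0 to 76.2 with high *CD34*. The granule genes *MPO* and *AZU1* were lower with low *CD34*, at 1778 to 5736 against 10412 to 22611 and at 28.5 to 59.9 against 279.9 to 1100.2, and so was the progenitor receptor gene *KIT*, at 96.8 to 514 against 681 to 996. *PTPRC*, which encodes the leukocyte surface protein CD45, was higher there, at 184 to 439.9 against 67.6 to 80.0. Markers of most other cell types were low, with 3 T cell genes summing to at most 0.401, 6 stromal genes to at most 1.23 and 3 B cell genes to at most 3.12 normalized CPM. The epithelial marker *EPCAM* also moved with the sides of *CD34*. It was 77.4 to 104 normalized CPM in the high *CD34* libraries and at most 0.0108 in the low ones, while the keratins *KRT8*, *KRT18* and *KRT19* stayed at or under 0.115, and the part of *EPCAM*-positive cells in the values above was not tested. In such bulk libraries, fewer cells of a type and less RNA per cell cannot be told apart.

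For the 4 libraries of Kasumi-1 cells from treated mice, 2 per siRNA, all 33 members are listed at 0 counts. These tables hold 5571 to 10266 reads on genes of 24503879 to 30687062 in a library, so no level of a member can be read from them.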

How the data were processed

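The authors trimmed the reads with Trim Galore 0.6.5, aligned them to GRCh38 with STAR 2.7.10a and deposited raw counts per gene over exons, which the file headers credit to Rsubread 1.32.4 with R 3.5.1. How strand and reads on several genes were treated is not given in the sources used here. The deposited CPM are these counts divided by the library total on genes and scaled to a common total, and the deposited FPKM are the CPM per kilobase of exon, used only to compare genes. In vivo tables hold deposited counts in the layout of htseq-count.

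From the counts, TMM factors (edgeR 4.0.16, R 4.3.3) gave normalized CPM per library. Genes with at least 600 reads in a fit were tested by edgeR's quasi-likelihood test, adjusted over all genes by Benjamini-Hochberg, within each line, for the interaction and between the lines with the siRNA label as covariate. No exact permutation test was made, because 3 libraries against 3 allow no two-sided p below 0.1. The standard errors given with these fits were back-calculated, as the size of the log2 fold change divided by the square root of the test's F value. The fits were tested on simulated counts. Alternatives were DESeq2 1.42.0, its size factors in edgeR, other filters, a block for the replicate number, 1 fit of all 12 libraries, no covariate, deposited CPM and each library left out. All members are named, with every library's value for those with a mean of at least 10 normalized CPM and the range for the rest, and from each list up to 3 genes with the largest mean fold change. The values of *ITGB8* in every library were added after they were seen. Members and lists were chosen with earlier results of these data known. *MCAM* is not analysed here. Tables used Python 3.11.15 with pandas 2.3.3, and figures matplotlib 3.10.9.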

Additional observations from a re-analysis of the deposited data

How the results depend on the processing

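No member and no gene passed in any of the 4 comparisons by edgeR's quasi-likelihood test, and this held with DESeq2's size factors, with either other filter, with all 12 libraries in 1 fit and without the siRNA covariate. DESeq2 differed, with 1163 genes and 3 members in Kasumi-1, 372 and 1 in SKNO-1, 127 and 1 for the difference between the lines, and 272 and 0 between the lines; the cause was not tested. With 1 library left out, Kasumi-1 had 0 to 4250 genes and 0 to 9 members called, and SKNO-1 0 to 2535 genes and 0 to 7 members. The calls came from the fits without Kasumi-1 siMM-mod replicate 3 and without SKNO-1 siRE-mod replicate 1. Between the lines, the genes called ranged from 0 to 70, reached without SKNO-1 siRE-mod replicate 3, with 0 members.

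The replicate numbers do not pair the libraries, since same-numbered libraries had correlations of deviations from −0.272 to −0.0132. With the replicate number as a block, 0 genes and 0 members passed by edgeR in each comparison, and the log2 fold change of *ITGA9* in Kasumi-1 turned to 0.095.

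Other turns of direction were all in log2 fold changes that passed no threshold. *CD47* between the lines was 0.078 without a filter and 0.040 with filterByExpr. With 1 library left out, log2 fold changes in Kasumi-1 ran from −0.29 to 0.45 for *ITGA9*, −0.069 to 0.43 for *CD47* and −1.50 to 0.35 for *ITGB4*, and in SKNO-1 from −0.086 to 0.35 for *ITGAE* and −0.33 to 1.21 for *ITGB4*. Between the lines they ran from −0.031 to 0.42 for *ITGA10*, −0.26 to 0.057 for *ITGA9*, −0.20 to 0.10 for *CD47*, −0.042 to 0.11 for *ITGA5*, −0.068 to 0.73 for *ITGAL*, −0.32 to 0.75 for *JAM2* and −0.14 to 0.14 for *ITGB2*. Members with under 600 reads in a fit, such as *ITGB3* and *SELP*, were not tested there.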
